A study of Mus musculus with 39 samples.

Results

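The 10 genes described here are Trp53, which encodes p53, a set of its target genes and the Gadd45 family. The target genes are Mdm2, Ccng1, Bbc3, Trp53inp1, Sesn2 and Phlda3. The 3 Gadd45 genes, Gadd45a, Gadd45b and Gadd45g, are included as a family. All 10 genes were chosen by symbol, and a member counted as measured if at least 1 probe set was annotated to that symbol alone. That held for 9 of the 10 members, with 16 probe sets, out of 12393 genes measured in all. Trp53 was not analysed here. The level of Cdkn2a on each leukemic array is given beside the members.

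The arrays carried RNA of B-lineage cells sorted from mouse bone marrow, and the series title names MLL-AF4 as the fusion behind the leukemias. There were 16 arrays of leukemic pre-B cells and 23 arrays of normal cells: 6 of pro-B, 8 of pre-B, 6 of immature B and 3 of mature B cells. All sorts took cells with B220, the B-cell form of CD45. The leukemic cells and the normal pre-B cells shared 1 gate, without CD43, IgM or IgD. Pro-B cells carried CD43 but neither immunoglobulin, immature B cells carried IgM without IgD or CD43, and mature B cells carried IgM and IgD without CD43. The normal cells came from adult mice, and the labels give no strain and no number of mice. For 5 leukemic arrays the label says that leukemia followed pIpC. This synthetic double-stranded RNA triggers an interferon response. The other 11 leukemic arrays carry no mention of pIpC. Leukemic array 116 is described as pre-B cells of a Mll-AF4stop knock-in mouse, with leukemia given only by its cell type label. The labels do not say that the normal arrays of a stage came from separate animals, so the p-values below measure the spread between these arrays, which may be partly technical.

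p53 is a transcription factor that is held low by the ubiquitin ligase Mdm2 and accumulates after DNA damage or oncogene signalling, when it raises genes for cell cycle arrest, repair and apoptosis. Developing B cells cut their own DNA to rearrange immunoglobulin genes, and p53 limits the survival of cells whose breaks are not repaired. The Gadd45 proteins are small stress-induced proteins that bind the kinase Map3k4 upstream of p38 and JNK, as well as Pcna and Cdk1. Gadd45a is a classic p53 target, Gadd45b is best known as a target of NF-kB and TGF-beta signalling, and in developing B cells Gadd45a has been linked to Foxo1 and the recombinase genes. Cdkn2a encodes the INK4a inhibitor of Cdk4 and Cdk6 and the ARF protein, which binds Mdm2 and so stabilises p53. Which Cdkn2a transcript its probe set reads is not given in the sources used here.

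The promoters of the 3 Gadd45 genes and of Mdm2 are shown because these 4 genes were lower in leukemic than in normal pre-B cells. Each window runs from 250 bases before to 50 bases after the annotated start, 5′ to 3′ on the gene's strand, from RefSeq on GRCm38.p6. Capitals mark matches to the motifs searched: the p53 half-site, AP-1 (TGANTCA), CRE (TGACGTCA), FOXO (GTAAACA) and E-box (CACGTG), on both strands. The windows are chr6:67037358-67037657 (minus strand) for Gadd45a, chr10:80929841-80930140 (plus) for Gadd45b, chr13:51846425-51846724 (plus) for Gadd45g and chr10:117710709-117711008 (minus) for Mdm2.
Gadd45a: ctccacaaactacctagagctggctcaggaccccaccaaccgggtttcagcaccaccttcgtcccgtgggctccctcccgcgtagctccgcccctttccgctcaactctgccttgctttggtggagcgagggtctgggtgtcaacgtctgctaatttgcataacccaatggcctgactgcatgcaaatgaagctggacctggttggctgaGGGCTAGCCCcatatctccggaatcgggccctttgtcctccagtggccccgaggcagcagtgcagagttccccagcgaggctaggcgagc
Gadd45b: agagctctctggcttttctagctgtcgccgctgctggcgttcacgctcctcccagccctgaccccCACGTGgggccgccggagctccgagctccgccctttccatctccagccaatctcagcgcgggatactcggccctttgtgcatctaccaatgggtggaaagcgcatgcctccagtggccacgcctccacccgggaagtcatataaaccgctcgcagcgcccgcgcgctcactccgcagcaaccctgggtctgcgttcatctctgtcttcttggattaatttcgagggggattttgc
Gadd45g: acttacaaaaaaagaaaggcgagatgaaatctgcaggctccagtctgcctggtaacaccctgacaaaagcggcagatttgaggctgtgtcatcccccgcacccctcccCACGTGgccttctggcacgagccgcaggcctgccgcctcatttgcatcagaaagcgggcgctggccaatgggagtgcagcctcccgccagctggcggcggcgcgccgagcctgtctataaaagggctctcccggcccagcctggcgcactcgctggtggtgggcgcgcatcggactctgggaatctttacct
Mdm2: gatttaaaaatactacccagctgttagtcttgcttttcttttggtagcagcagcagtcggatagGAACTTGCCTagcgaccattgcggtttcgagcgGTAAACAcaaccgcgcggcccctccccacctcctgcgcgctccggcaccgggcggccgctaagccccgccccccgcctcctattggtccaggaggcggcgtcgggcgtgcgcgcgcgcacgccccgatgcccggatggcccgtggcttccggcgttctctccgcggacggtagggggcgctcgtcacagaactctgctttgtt

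The Gadd45a window held a p53 half-site at bases -40 to -31 from the start. The Gadd45b and Gadd45g windows each held an E-box, at -185 to -180 and at -142 to -137. The Mdm2 window held a p53 half-site at -186 to -177 and a FOXO match at -153 to -147, and no matches overlapped in these 4 windows. Windows were at hand for 8 of the 9 measured members, all but Trp53inp1, and 3 of those members (Mdm2, Ccng1 and Gadd45a) held a p53 half-site. A p53 half-site was found in 8.36% of 32851 mouse windows of the same length, an E-box in 7.15%, the FOXO letters in 3.65%, AP-1 in 7.81% and CRE in 1.79%. The full p53 site, a pair of half-sites at most 13 bases apart, was found in 0.0731% of windows and in 0 of the members' windows. The known p53 sites of Mdm2 and Gadd45a lie in introns, outside such windows, and a match describes letters only.

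The arrays differed in ways that bear on the members. Leukemic array 122 stood apart from the other 15 leukemic arrays: its mean over 9 B-lineage genes was 7.71 (log2 intensity), against 9.69 to 10.49 on the others, and 6 of the 9 genes lay below every other leukemic array. Among these 6, Igll1, a surrogate light chain of the pre-B receptor, read 6.66 on array 122 and at least 10.50 on the others, and Ebf1, a factor of B-lineage commitment, read 7.27 and at least 10.95. Its means over 15 myeloid and 8 plasmacytoid dendritic cell genes were 9.72 and 9.48, each above every other leukemic array. By gene, 6 of the 15 and 5 of the 8 lay above every other leukemic array, and the rest lay within their range. Some of the results over leukemic arrays are therefore also given without array 122. The accessions fall into 2 runs, with 12 leukemic arrays in run 1 and 4 in run 2, that no label names as a batch. The 3′ minus 5′ difference of the beta-actin controls was 1.18 to 1.46 on leukemic arrays of run 1 and 0.74 to 0.90 on those of run 2.

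**Figure D1:**
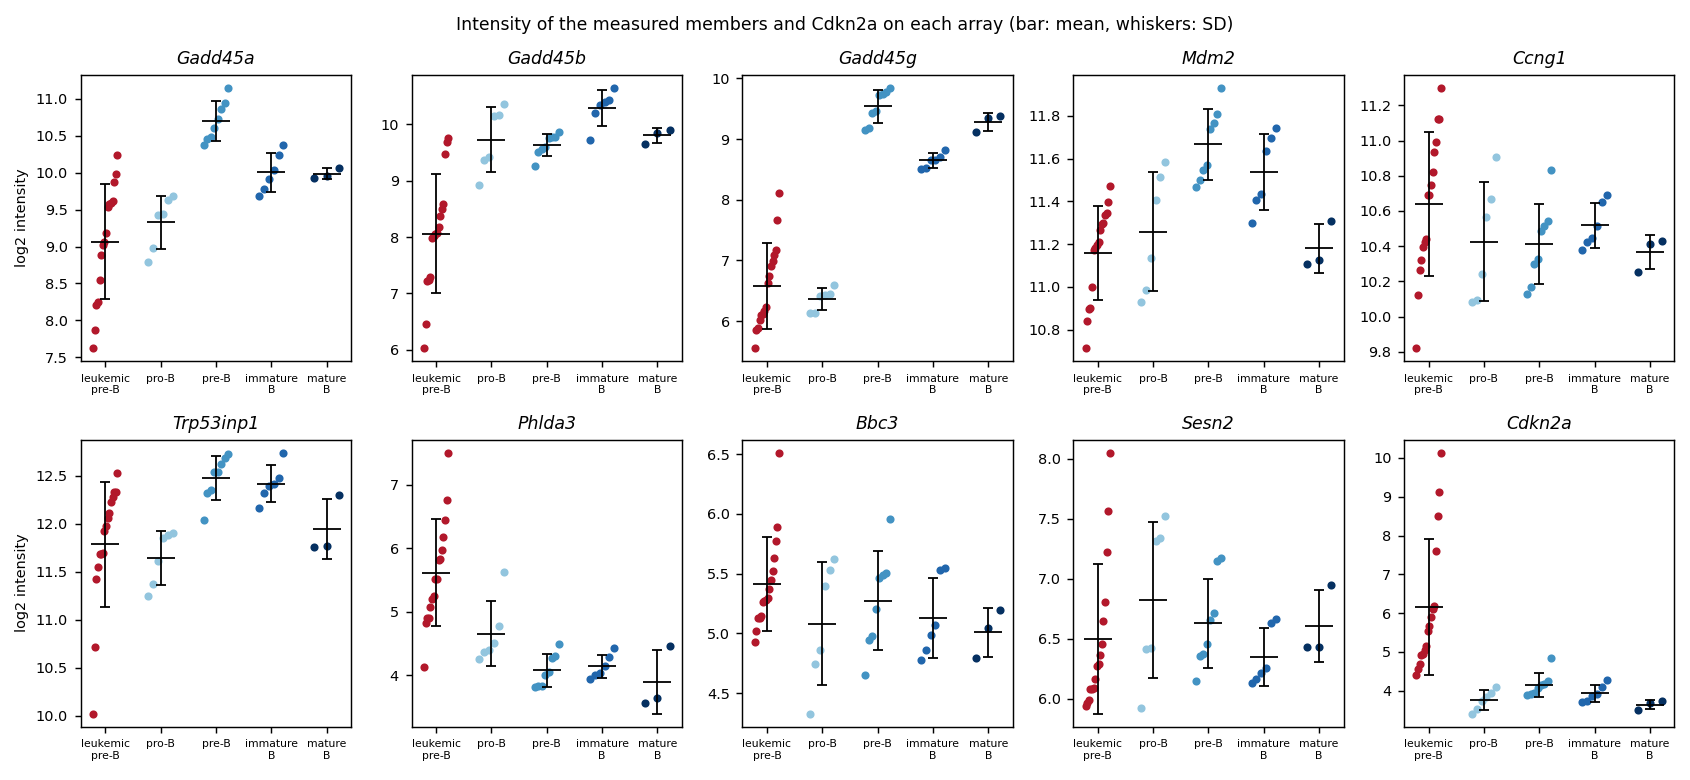
Log2 intensity (vertical axes, each with its own range) of the 9 measured members and Cdkn2a in 5 groups (horizontal axes). Each point is 1 array, the long bar is the group mean and the whiskers are 1 SD. The leukemic points of Gadd45a and Gadd45g all lie below the normal pre-B points, those of Phlda3 lie above them on 15 of 16 arrays, and Cdkn2a spreads from 4.39 to 10.13 in leukemic cells.

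Leukemic pre-B cells had lower levels of all 3 Gadd45 genes, Mdm2 and Trp53inp1 than normal pre-B cells, and a higher level of Phlda3. This comparison sets the leukemic cells against the normal stage with the same surface markers. Of the 9 measured members, 1 rose, 5 fell and 3 did not pass the test, at an adjusted p under 0.05 (limma, Benjamini-Hochberg over all genes). Over all 12393 genes, 16% passed, 8.5% higher and 7.53% lower in leukemic cells. The median difference over the 9 members was -0.51 and that over all genes was -0.007 (log2). In sorted bulk samples, fewer cells expressing a gene and less RNA per cell cannot be told apart.

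Gadd45g, the family member with the largest difference, had a lowest, median and highest log2 intensity of 5.55, 6.43 and 8.11 on the 16 leukemic arrays, against 9.16, 9.60 and 9.85 on the 8 normal pre-B arrays. All 16 leukemic arrays lay below every pre-B array, and the nearest were arrays 153 and 117. The means were 6.58 ± 0.71 (SD, n = 16) and 9.54 ± 0.27 (SD, n = 8). The difference was -2.96 (SE 0.26), or 7.80-fold lower, with a limma adjusted p of 1.32e-08. Without array 122 it was -2.91.

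Gadd45a read 7.62, 9.13 and 10.24 (lowest, median, highest) on leukemic arrays and 10.37, 10.66 and 11.15 on normal pre-B arrays. Again all 16 leukemic arrays lay below every pre-B array, with arrays 116 and 117 lowest. The mean level was 9.07 ± 0.78 in leukemic cells (SD, n = 16) and 10.70 ± 0.27 in pre-B cells (SD, n = 8), a difference of -1.63 (SE 0.27, limma adjusted p = 0.000101).

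Gadd45b had the widest spread of the members among leukemic arrays. Its leukemic arrays read 6.03, 8.06 and 9.75 (lowest, median, highest), while the normal pre-B arrays read 9.25, 9.68 and 9.86. The 13 lower leukemic arrays lay below every pre-B array, and arrays 117, 122 and 227 lay within the pre-B range. Its SD over leukemic arrays was 1.05, a spread larger than that of 91.3% of genes, against 0.20 over pre-B arrays. The means were 8.06 and 9.63, which gave a difference of -1.58 (SE 0.36, limma adjusted p = 0.00268). Its 2 other probe sets differed by -1.53 and -1.35, and both passed the test over all probe sets.

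Mdm2, the ligase that degrades p53 and is itself raised by p53, read 10.71, 11.20 and 11.47 on leukemic arrays (lowest, median, highest) and 11.47, 11.65 and 11.93 on pre-B arrays. On 15 of 16 leukemic arrays it lay below every pre-B array, and array 116 overlapped with them. Array 116 is in run 1, where the lowest pre-B array read 11.74, above it. The means were 11.16 ± 0.22 and 11.67 ± 0.17 (SD, n = 16 and 8). The difference was small but exceeded the spread between arrays, at -0.51 (SE 0.090, limma adjusted p = 0.000211). Another probe set of Mdm2 differed by -0.83 (limma adjusted p = 1e-05 over all probe sets).

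Trp53inp1, a stress-induced nuclear protein that promotes p53 activity and autophagy, read 10.02, 11.95 and 12.53 on leukemic arrays and 12.04, 12.54 and 12.72 on pre-B arrays. The groups overlapped: 9 leukemic arrays lay below every pre-B array and 7 within their range. The difference of -0.69 (SE 0.22, limma adjusted p = 0.0329) did not hold in every subset. Leaving out pre-B array 1, 2, 6, 7 or 8 singly ended its call, with a largest adjusted p of 0.0676, and so did taking run 1 alone. Its other probe set gave -1.08 (limma adjusted p = 0.0476 over all probe sets).

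Phlda3, a p53 target that blocks AKT at the membrane, was the member that rose. It read 4.13, 5.51 and 7.50 on leukemic arrays (lowest, median, highest) and 3.81, 4.03 and 4.48 on pre-B arrays. On 15 of 16 leukemic arrays it lay above every pre-B array, with array 153 highest and array A1507 within the pre-B range. Its difference was 1.54 (SE 0.30, limma adjusted p = 0.000518). The gene was dim, with a mean of 4.79 over the 39 arrays, below the limit of 5.65 that marks the dimmest 40% of genes.

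The other 3 members did not pass the test. Ccng1, a cyclin raised by p53 that acts with Mdm2, averaged 10.64 ± 0.41 in leukemic cells and 10.41 ± 0.23 in pre-B cells (SD, n = 16 and 8), and its interval for the difference was -0.08 to 0.54. Its 2 other probe sets gave 0.40 and 0.32, and neither passed. Bbc3, which encodes the apoptosis inducer PUMA, averaged 5.41 ± 0.39 and 5.28 ± 0.41, with an interval of -0.24 to 0.51. Sesn2, a sestrin that restrains mTORC1 signalling, averaged 6.50 ± 0.62 and 6.63 ± 0.37, with an interval of -0.62 to 0.37. Array 122 was the highest leukemic array for both Bbc3 (6.51) and Sesn2 (8.05).

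The members' differences from normal pre-B cells were also computed within each accession run, which holds 12 leukemic and 4 pre-B arrays in run 1 and 4 of each in run 2. Within run 1, Mdm2 (-0.57), Gadd45a (-1.81) and Gadd45g (-2.83) passed the test, beside 1001 of 12393 genes. Gadd45b (-1.51, limma adjusted p = 0.132), Trp53inp1 (-0.78, adjusted p = 0.213) and Phlda3 (1.27, adjusted p = 0.0812) kept their direction there but did not pass. Within run 2 all 6 passed, beside 1968 of 12393 genes. They stood at -0.61 for Mdm2, -1.32 for Gadd45a, -1.63 for Gadd45b, -3.33 for Gadd45g, -0.65 for Trp53inp1 and 2.16 for Phlda3. Without array 122, the count of members called was again 6, beside 2164 of 12393 genes, with Trp53inp1 at -0.62 and Gadd45b at -1.69.

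Markers of other cells also moved between these groups. Of 15 myeloid genes, 0 rose and 6 fell in leukemic cells, and their mean ranged from 4.95 to 9.72 on leukemic arrays and from 7.22 to 9.33 on pre-B arrays. Of 8 plasmacytoid dendritic cell genes 4 fell, with means of 5.72 to 9.48 and of 6.85 to 8.99. Of 13 T and NK genes 2 fell and 11 did not pass, with means of 4.48 to 6.75 and of 5.38 to 5.88. Of 7 erythroid genes 1 fell and 6 did not pass, with means of 4.32 to 5.51 and of 4.77 to 5.63. Of 6 plasma cell genes 2 fell, with medians of the list mean of 8.34 and 8.79. In a fit that adds the myeloid mean, 6 members and 1952 of 12393 genes were called. Among the members were Gadd45g (-3.09), Gadd45a (-1.53), Gadd45b (-1.42) and Phlda3 (1.74). The Gapdh 3′ minus 5′ difference moved with the groups too: within run 2 it was 1.05 to 1.13 on leukemic and 1.17 to 1.41 on pre-B arrays, and within run 1 it was 0.84 to 1.01 and 0.91 to 1.26. The part of the Gapdh difference and of the other marker lists was not tested.

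**Figure D2:**
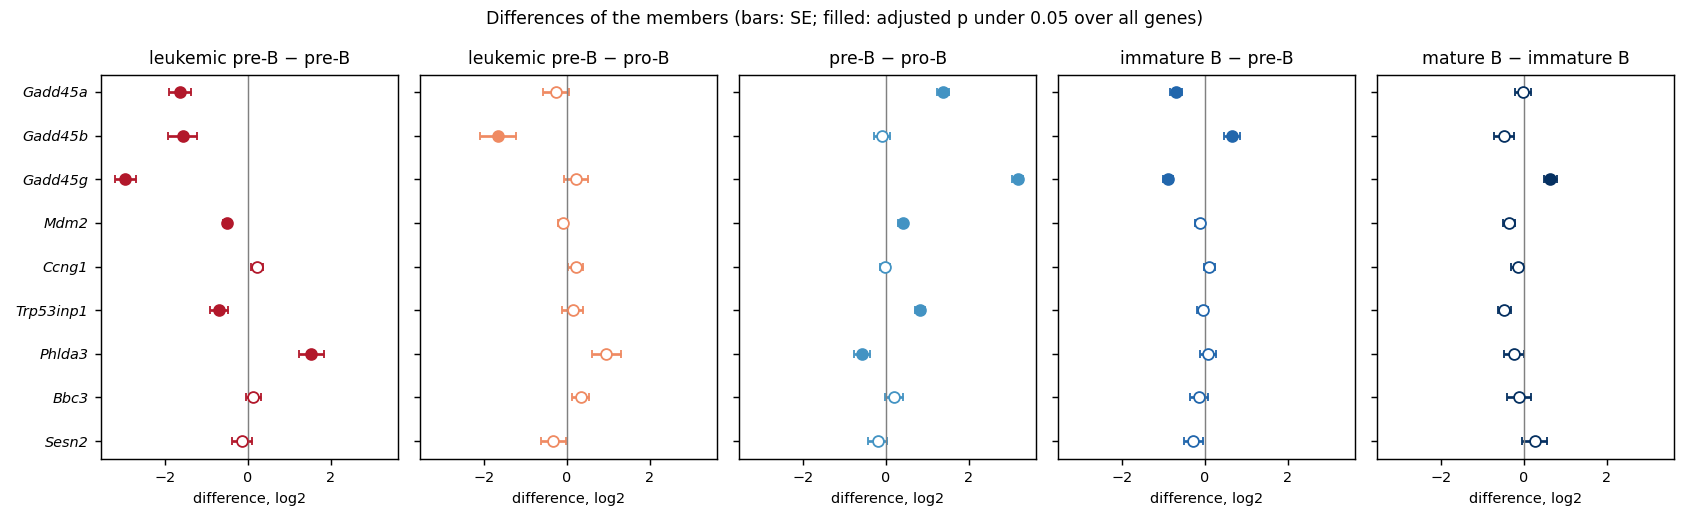
Difference in mean log2 intensity (horizontal axes) of the 9 measured members (rows) in 5 comparisons (panels). Points are limma estimates, bars are 1 SE, and filled points passed an adjusted p under 0.05 over all genes. The 3 Gadd45 genes sit left of 0 in leukemic against pre-B cells, while against pro-B cells Gadd45b alone is filled.

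Leukemic cells were also compared with normal pro-B cells, the stage before pre-B. Gadd45b was lower in leukemic cells and the other 8 measured members did not pass the test, while 15.7% of all genes passed. The median difference was 0.14 over the members and 0.13 over all genes (log2). Gadd45b read 6.03, 8.06 and 9.75 (lowest, median, highest) on leukemic arrays and 8.92, 9.78 and 10.36 on the 6 pro-B arrays. On 13 leukemic arrays it lay below every pro-B array. The difference was -1.67 (SE 0.43, limma adjusted p = 0.0126).

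Gadd45g, which stood 7.80-fold below pre-B cells, averaged 6.58 ± 0.71 in leukemic cells and 6.36 ± 0.18 in pro-B cells (SD, n = 16 and 6). The interval for that difference was -0.39 to 0.83, and the leukemic arrays spread to both sides: 8 lay above every pro-B array, 6 below every one and 2 within their range. For Gadd45a the interval was -0.92 to 0.40, for Mdm2 -0.34 to 0.13 and for Trp53inp1 -0.39 to 0.67. Phlda3 averaged 5.61 ± 0.84 in leukemic cells and 4.66 ± 0.51 in pro-B cells, a difference of 0.96 that did not pass (limma adjusted p = 0.0629). It passed with the run as a covariate (1.11, adjusted p = 0.0283), and without leukemic array A1507 or pro-B array 3. A dim probe set of Sesn2 was lower in leukemic cells (-1.10, adjusted p = 0.00785 over all probe sets), while the set used for the gene, at -0.33, did not pass.

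The pro-B arrays carried markers of other cells. Their plasmacytoid dendritic mean was 10.09 to 11.58, against 5.72 to 9.48 on leukemic arrays, and 8 of 8 genes of that list fell in leukemic cells. Over all genes 7.63% fell in this comparison. Of the T and NK genes 10 of 13 fell, with means of 4.48 to 6.75 on leukemic and 7.59 to 9.34 on pro-B arrays. Of the myeloid genes 8 of 15 fell, with means of 4.95 to 9.72 and of 9.38 to 10.17. Gadd45b did not pass with the myeloid mean as a covariate (-1.45, limma adjusted p = 0.394) or within run 1 (-1.85, adjusted p = 0.166), and it passed within run 2 (-1.48, adjusted p = 0.0324). Without array 122 it was at -1.78 (adjusted p = 0.00389). The part of the T, NK and plasmacytoid dendritic genes was not tested.

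**Figure D3:**
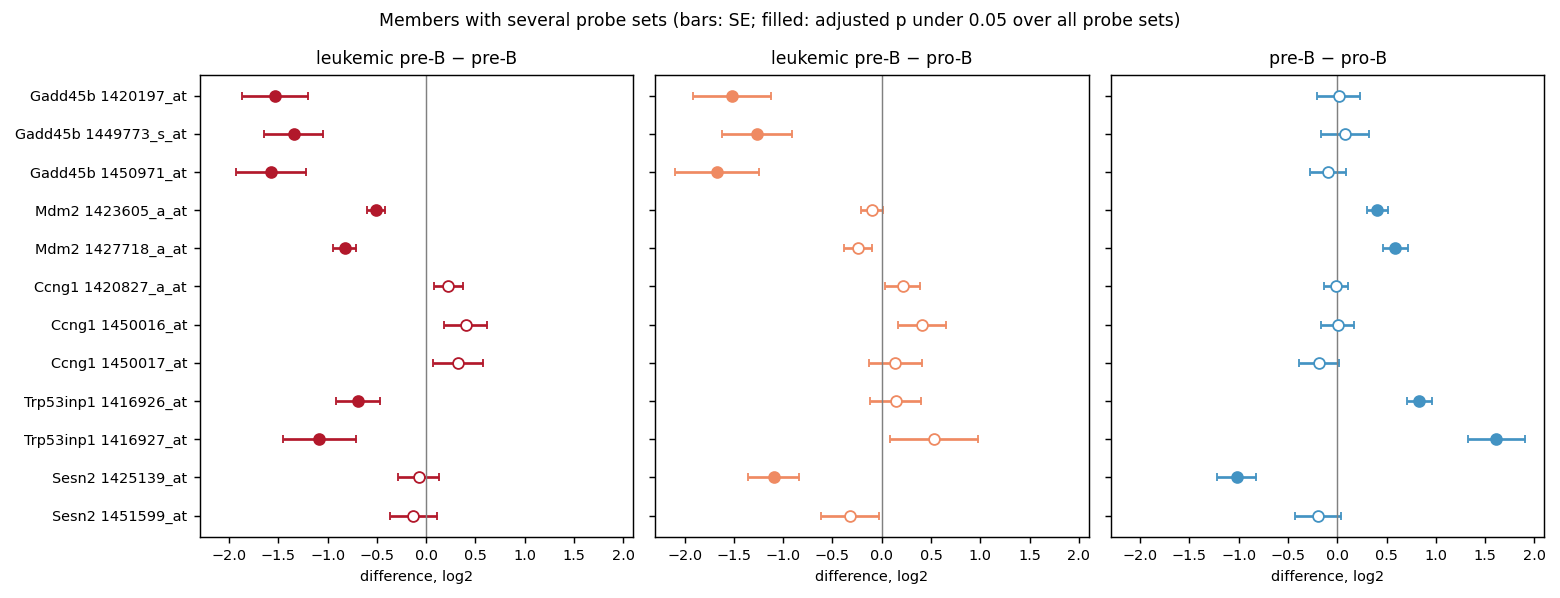
Difference in mean log2 intensity (horizontal axes) for each probe set (rows) of the 5 members with more than 1, in 3 comparisons (panels). Points are limma estimates, bars are 1 SE, and filled points passed an adjusted p under 0.05 over all probe sets. The 3 Gadd45b sets lie left of 0 in both leukemic comparisons, and the 2 Sesn2 sets part in the comparisons with pro-B cells.

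In normal development, Gadd45g, Gadd45a, Trp53inp1 and Mdm2 rose at the step to pre-B cells, and Phlda3 fell. Of the 9 members, 4 rose and 1 fell in pre-B against pro-B cells, where 33.6% of all genes passed. Gadd45g read 9.16, 9.60 and 9.85 (lowest, median, highest) on pre-B arrays and 6.13, 6.42 and 6.59 on pro-B arrays, with no overlap. Its difference was 3.18 (SE 0.13, limma adjusted p = 1.58e-14). Gadd45a read 10.37, 10.66 and 11.15 in pre-B and 8.80, 9.43 and 9.69 in pro-B cells, again with no overlap, a difference of 1.37 (SE 0.15, adjusted p = 1.84e-07).

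Trp53inp1 was higher in pre-B cells by 0.83 (SE 0.12, limma adjusted p = 1.69e-05) and no pre-B array overlapped with a pro-B array. For Mdm2 the difference was 0.41 (SE 0.11, adjusted p = 0.00593), and the groups overlapped when both runs were pooled. Within run 1, Mdm2 read 11.41 to 11.58 in pro-B and 11.74 to 11.93 in pre-B cells. Within run 2 it read 10.93 to 11.13 and 11.47 to 11.57. Phlda3 fell by 0.58 (SE 0.19, adjusted p = 0.0232). The Phlda3 call was lost within each run and without pro-B array 3, where the difference was -0.39. Sesn2 did not pass by the set used (-0.20), but its other, dim set was lower in pre-B cells (-1.02, adjusted p = 0.000347 over all probe sets). Markers of other cells fell at this step too, where 15.7% of all genes fell. Of T and NK genes 12 of 13 fell, with means of 5.38 to 5.88 in pre-B and of 7.59 to 9.34 in pro-B cells. So did 7 of 8 plasmacytoid dendritic genes (6.85 to 8.99 and 10.09 to 11.58) and 12 of 15 myeloid genes (7.22 to 9.33 and 9.38 to 10.17). Their part was not tested. Because this step shares its pre-B arrays with the leukemic comparison, the values of the members in both are given side by side and no overlap of calls is drawn.

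Immature B cells were then compared with pre-B cells. Here 1 of 9 members rose and 2 fell, while 19.6% of all genes passed. Gadd45g fell to 8.65 ± 0.12 in immature B cells, against 9.54 ± 0.27 in pre-B cells (SD, n = 6 and 8), with no overlap (limma adjusted p = 9.08e-06). Gadd45a fell to 10.01 ± 0.27, against 10.70 ± 0.27, with a slight overlap at 10.37 (adjusted p = 0.00121). That overlap was between arrays of different runs, and within each run the groups lay apart for Gadd45a. Gadd45b rose to 10.29 ± 0.31, against 9.63 ± 0.20 (adjusted p = 0.0119). The Gadd45b call was lost within each run, and its 2 other probe sets, at 0.60 and 0.51, did not pass. Myeloid markers rose at this step in 6 of 15 genes, with means of 8.31 to 10.27 in immature B and of 7.22 to 9.33 in pre-B cells, as did 3 of 7 erythroid genes, while 6 of 13 T and NK genes fell. The part of these markers was not tested.

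Between mature and immature B cells, 1 of 9 members passed, beside 5.25% of all genes. Gadd45g read 9.35, 9.39 and 9.12 on the 3 mature arrays and 8.50, 8.66 and 8.83 (lowest, median, highest) on the 6 immature arrays, with no overlap. The difference was 0.64 (SE 0.16, limma adjusted p = 0.0212), and the call was lost without mature array 1 or 2. All mature arrays are in run 2, so no value within run 1 exists. Probe sets disagreed at this step: 2 of the 3 Gadd45b sets were lower in mature B cells (-1.24, limma adjusted p = 0.0112, and -1.15, adjusted p = 0.0323, over all probe sets), while the set used for the gene stood at -0.49 and did not pass. Likewise the other Trp53inp1 set was lower (-1.39, adjusted p = 0.0323), while the set used stood at -0.47 and passed only without mature array 2 among the fits that left out 1 array of these groups (-0.65, adjusted p = 0.0255).

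The 3′ minus 5′ difference of the Gapdh controls was 1.47 to 1.68 on mature arrays and 1.03 to 1.49 on immature arrays, or 1.28 to 1.49 on those of run 2. Of the marker lists for other cells, 1 of 6 plasma cell genes fell and 0 genes of the myeloid, T and NK, plasmacytoid dendritic and erythroid lists passed, with myeloid means of 8.56 to 10.86 in mature and of 8.31 to 10.27 in immature B cells. The part of these in the Gadd45g difference was not tested.

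The order of mean levels over the groups differed between the Gadd45 genes. For Gadd45g it was pre-B, mature B, immature B, leukemic and pro-B, from high to low, and the arrays of pre-B and mature B overlapped, as did those of leukemic and pro-B cells. For Gadd45a it was pre-B, immature B, mature B, pro-B and leukemic, with mature B inside the immature range and pro-B inside the leukemic range. For Gadd45b it was immature B, mature B, pro-B, pre-B and leukemic, and every pair of neighbours in that order overlapped. Mdm2 ran pre-B, immature B, pro-B, mature B and leukemic. Phlda3 ran leukemic, pro-B, immature B, pre-B and mature B, with overlap between all neighbours. These means pool both runs, and mature B arrays are in run 2 only. Within run 2, Gadd45a ran pre-B (10.60), mature B (9.99), immature B (9.80), leukemic (9.28) and pro-B (9.07). Mature B then stood above pro-B for Mdm2 (11.18 and 11.02), and pre-B above pro-B for Gadd45b (9.70 and 9.55). Pro-B stood above leukemic for Gadd45g (6.33 and 6.23), and Phlda3 kept its order.

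Cdkn2a varied more among the leukemic arrays than any measured member. It read 10.13 on array 117, 9.12 on array 116, 8.51 on array 122 and 7.61 on array A1507. Arrays 17, 224, A46, 15 and 270 read 6.18, 6.10, 5.90, 5.68 and 5.55. Arrays 153, 227, A1322 and A992 read 5.16, 5.06, 4.96 and 4.92, and arrays 228, 154 and 226 read 4.68, 4.55 and 4.39. The 8 normal pre-B arrays spanned 3.90 to 4.83, and 13 leukemic arrays lay above all of them. The mean was 6.16 ± 1.75 in leukemic and 4.15 ± 0.31 in pre-B cells (SD, n = 16 and 8), a difference of 2.01 (SE 0.59, limma adjusted p = 0.0193). Against pro-B cells the difference was 2.40 (SE 0.68, adjusted p = 0.0216), and 4.11 with the myeloid mean in the fit (adjusted p = 0.0116). Neither passed within run 1, at 2.18 and 2.48 (adjusted p = 0.192 and 0.243), and both passed within run 2, at 1.61 and 2.09. The comparison with pro-B cells also lost its call without pro-B array 2 or 6, at 2.33 and 2.35.

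**Figure D4:**
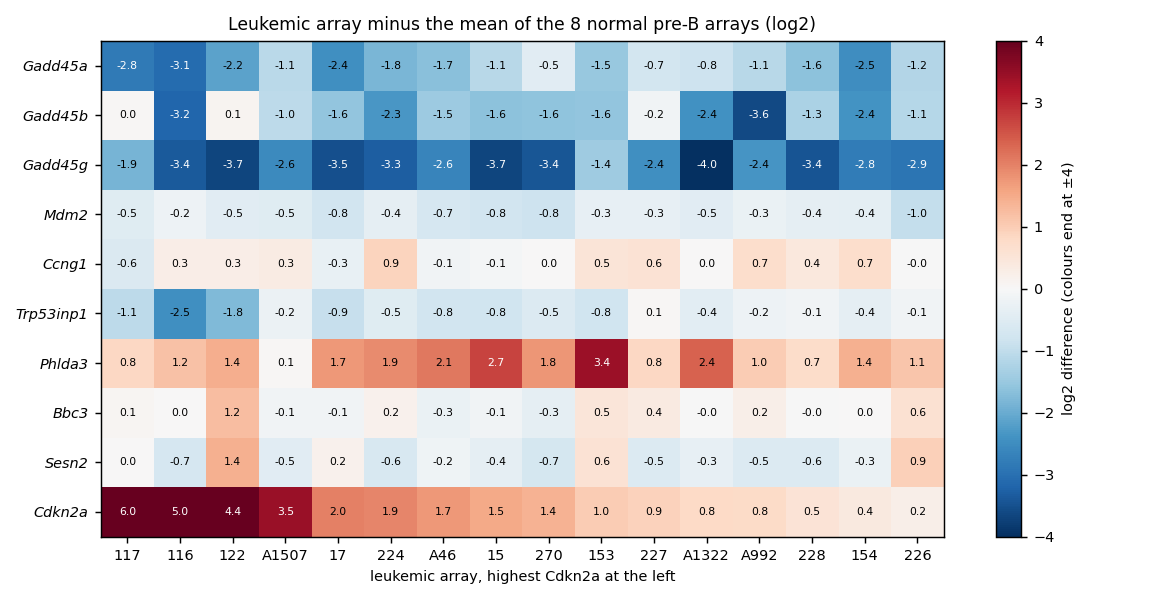
Log2 intensity on each leukemic array minus the mean of the 8 normal pre-B arrays, for the measured members and Cdkn2a (rows). Columns are the 16 leukemic arrays by falling Cdkn2a; red is higher and blue lower than the pre-B mean, with colours that end at 4. The Gadd45a and Gadd45g rows are blue throughout, and Gadd45b is near 0 on arrays 117, 122 and 227.

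Across leukemic arrays, Trp53inp1 was lower where Cdkn2a was higher. Over 9 relations of members with Cdkn2a on 16 arrays, Trp53inp1 had Pearson r = -0.74 (adjusted permutation p = 0.0243) and Spearman rho = -0.77 (adjusted permutation p = 0.00756). Without arrays 117 and 116, which lay farthest from the Cdkn2a median, r was -0.69 (adjusted permutation p = 0.102). Over the 12 arrays of run 1, r was -0.75 (adjusted permutation p = 0.0633), without array 122 it was -0.69 (adjusted permutation p = 0.0763), and over the 12 arrays with the lowest Cdkn2a it was -0.72 (adjusted permutation p = 0.0939). The sign was the same in these 4 subsets, and none of them passed the threshold. Run 2 holds 4 leukemic arrays, too few for a correlation.

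Gadd45a had r = -0.61 with Cdkn2a (adjusted permutation p = 0.0496) and rho = -0.42 (adjusted permutation p = 0.475). Its r was -0.23 without arrays 117 and 116 and -0.18 over the 12 arrays with lower Cdkn2a, so that relation rests on the arrays with the highest Cdkn2a. It was -0.66 in run 1 (adjusted permutation p = 0.0952) and -0.60 without array 122 (adjusted permutation p = 0.0763). The other 7 members had r between -0.39 (Ccng1) and 0.31 (Gadd45b), and none passed. For Mdm2, whose protein ARF binds, r was 0.20. In a limma fit of all genes on the Cdkn2a level, 0.194% of 12392 genes (24) passed and 0 of 9 members did, with 2 members at an unadjusted p under 0.05. The slope of Trp53inp1 was -0.27 per log2 unit of Cdkn2a (SE 0.061, limma adjusted p = 0.0845) and that of Gadd45a was -0.27 (SE 0.089, adjusted p = 0.226). Without array A1507 the Trp53inp1 slope passed, at -0.30 (limma adjusted p = 0.0189), and without array 122 it was -0.25 (adjusted p = 0.264).

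**Figure D5:**
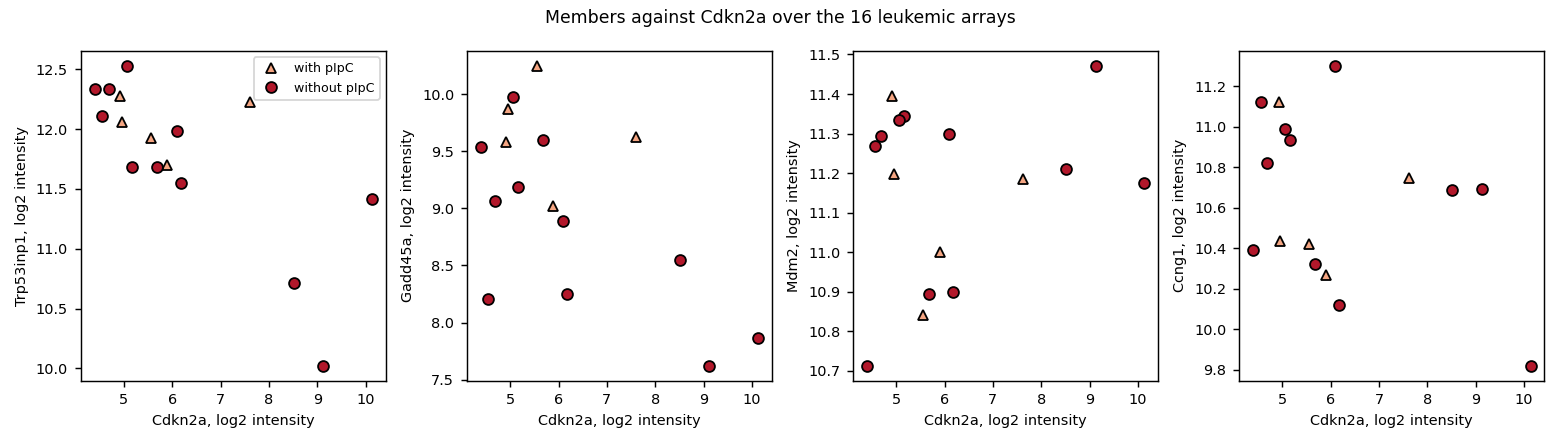
Log2 intensity of Trp53inp1, Gadd45a, Mdm2 and Ccng1 (vertical axes) against that of Cdkn2a (horizontal axes) on the 16 leukemic arrays. Each point is 1 array, triangles are the 5 arrays with pIpC and circles the 11 without. The Trp53inp1 points run downward to the right, and the Mdm2 points show no such trend (r = 0.20).

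Among the members themselves, 36 pairs were compared over the 16 leukemic arrays, and 19 had r above 0. Mdm2 and Ccng1 had rho = 0.76 (adjusted permutation p = 0.0353) and r = 0.63 (adjusted permutation p = 0.104), with r = 0.68 without arrays 226 and 270. Both genes had lower leukemic means in run 2 (10.91 and 10.28) than in run 1 (11.24 and 10.76). The part of the run in this relation was not tested. Gadd45a and Trp53inp1 had r = 0.68 (adjusted permutation p = 0.0475) and rho = 0.59 (adjusted permutation p = 0.338), and r was 0.47 without arrays 116 and 117. Bbc3 and Sesn2 had rho = 0.39 (adjusted permutation p = 0.497) and r = 0.78 (adjusted permutation p = 0.0443), and r was 0.30 without arrays 122 and 226, so the relation rests on those arrays. Over the 12 arrays of run 1, r was 0.48 for Mdm2 and Ccng1, 0.75 for Gadd45a and Trp53inp1 and 0.86 for Bbc3 and Sesn2.

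Leukemic arrays with pIpC did not differ from those without by the limma test: 0% of 12393 genes and 0 of 9 members passed, with 603 genes and 1 member at an unadjusted p under 0.05. That member was Gadd45a, at 9.67 ± 0.45 with pIpC and 8.80 ± 0.76 without (SD, n = 5 and 11). Its difference of 0.87 (SE 0.35) had an adjusted p of 0.933, and the arrays overlapped. For Gadd45b the interval was -1.74 to 0.44 and for Gadd45g -0.85 to 0.76.

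The genes whose levels most resembled those of a member over all 39 arrays are given by Pearson's r for 4 members, as a description in which the groups and runs are shared. Trp53inp1 resembled Rrm2b (r = 0.89), a p53 target that encodes a ribonucleotide reductase subunit, and Man2a1 (0.87). Mdm2 resembled Crebbp and Chmp1b (0.87 each). For Gadd45g the genes were Emc4 (0.86) and Nfkbia (0.85), and for Gadd45b Creb3l2 and Atp8a1 (0.84 each). Over the 16 leukemic arrays alone, r was 0.80 for Trp53inp1 and Rrm2b and 0.35 for Gadd45g and Emc4.

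Other p53 target genes moved both ways in leukemic against pre-B cells. Of 24 listed genes 22 were measured, of which 3 rose, 4 fell and 15 did not pass, with a median difference of 0.11. Over all genes 8.5% rose and 7.53% fell. The genes that rose were Aen, an exonuclease of apoptosis (10.80 ± 0.24 in leukemic and 9.90 ± 0.13 in pre-B cells, limma adjusted p = 2.2e-07), Zmat3, an RNA-binding zinc finger protein (1.28, adjusted p = 0.0225), and Steap3, a ferrireductase (0.58, adjusted p = 0.0184). Those that fell were Plk2, a stress kinase (5.90 ± 0.93 and 8.46 ± 0.89, difference -2.56), Btg2, an antiproliferative factor (8.41 ± 0.75 and 10.78 ± 0.28, difference -2.37), Rrm2b (-0.85) and Apaf1, the scaffold of the apoptosome (-0.41). Pmaip1, which encodes NOXA, stood at 0.93 (adjusted p = 0.103) and Xpc, a damage sensor, at 0.71 (adjusted p = 0.15), and neither passed. In the fit with the myeloid mean, however, Pmaip1 (limma adjusted p = 0.0108) and Xpc (1.24, adjusted p = 0.00795) passed, both higher in leukemic cells. The Zmat3 call was lost within both runs, and Steap3, Rrm2b and Apaf1 lost theirs within run 1. With the myeloid mean Zmat3 (adjusted p = 0.0536), Steap3 (0.0626) and Apaf1 (0.0952) did not pass, and with the mean of probe sets Apaf1 stood at -0.27 (adjusted p = 0.297). Against pro-B cells, 3 of the 22 rose and 1 fell, among them Aen (0.58), Steap3 (0.73) and Btg2 (-1.34), beside 15.7% of all genes. These 3 calls did not hold within run 1 or in the fit with the myeloid mean (limma adjusted p = 0.11, 0.347 and 0.121 there). Those of Aen and Btg2 did not hold within run 2 either, nor that of Aen with the mean of probe sets.

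Of 17 listed regulators of p53 and damage kinases, 16 were measured, of which 3 rose, 4 fell and 9 did not pass in leukemic against pre-B cells, where 16% of all genes passed. Besides Cdkn2a, Npm1, which binds ARF in the nucleolus, rose by 0.44 (limma adjusted p = 5.51e-05) and the damage kinase Atr by 0.60 (adjusted p = 0.049). Cop1 (-0.59) and Rchy1 (-0.59), both ubiquitin ligases of p53, fell, as did E2f1 (-0.71) and Dmtf1 (-0.49), which both raise ARF transcription. The Atr call was lost in 17 of 24 fits that left out 1 array, and those of Atr, E2f1 and Dmtf1 were lost within run 1 and with the myeloid mean (limma adjusted p = 0.0711, 0.142 and 0.0832 there). With the mean of probe sets E2f1 stood at -0.38 and did not pass (adjusted p = 0.194). Bmi1, a repressor of Cdkn2a, stood at 0.60 and Ppm1d, a phosphatase of p53, at -0.47, and neither passed.

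Of 14 listed Gadd45 partners and p38 or JNK kinases, 11 were measured and 1 fell, against 7.53% of all genes, the p38 activator Map2k6 (-0.68, limma adjusted p = 0.0493), a call lost within run 1 and in 16 of 24 fits without 1 array. Tet1 (-0.78) and Mapk9, a JNK (-0.56), did not pass, and the list's median was -0.12. Mapk9 passed with the run as a covariate (-0.78, adjusted p = 0.000797), within run 2 (-1.09, adjusted p = 0.000374) and with the mean of probe sets (-0.79, adjusted p = 0.00152), and Tet1 passed without leukemic array 270 (adjusted p = 0.0271). Of 12 genes of the ATF4 stress response, which shares Sesn2 as a target, 2 rose and 10 did not pass, with a median of 0.52. That share was near the 16% of all genes that passed in either direction, while 8.5% of all genes rose. Asns, which makes asparagine, read 9.56 ± 0.87 in leukemic and 6.62 ± 0.67 in pre-B cells (limma adjusted p = 5.48e-07), and Psat1, of serine synthesis, rose by 0.55, a call lost within run 1 (adjusted p = 0.0527). Against pro-B cells 4 of the 12 rose, beside 8.11% of all genes that rose. Asns was among them (1.56), but it did not pass within run 1 (adjusted p = 0.0723), within run 2 (0.159) or with the myeloid mean (0.318). Against pre-B cells, Chac1 (1.20) and Nupr1 (1.14) did not pass. Chac1 passed there with the run as a covariate (1.39, limma adjusted p = 0.0302) and with all arrays in 1 fit (adjusted p = 0.0228). Of 7 relatives of the members 6 were measured, of which 2 fell and 4 did not pass, beside 7.53% of all genes that fell. Those that fell were Trp53inp2, the paralog of Trp53inp1 (-1.69), and Ccng2, the paralog of Ccng1 (-1.03, limma adjusted p = 1.86e-06). Trp63 (0.82) and Trp53rkb (0.50) did not pass against pre-B cells. Trp53rkb passed there with all arrays in 1 fit (limma adjusted p = 0.0412) and without leukemic array 17 or pre-B array 8. Against pro-B cells Trp63 and Trp53rkb stood at 2.14 and 0.85 and passed. With the myeloid mean they stood at 1.32 (limma adjusted p = 0.692) and 0.80 (adjusted p = 0.224). Within run 2 neither passed, and Trp63 also did not pass within run 1 or without pro-B array 2 or 6.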

How the data were processed

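RNA was extracted with Trizol, and a NuGEN Ovation kit made biotinylated cDNA out of 20 ng, per the labels' protocols. Probe set names are those of Affymetrix arrays. Each of the 39 arrays has 1 deposited intensity per probe set. The submitters' processing notes name RMA for these values. Whether all arrays were normalized together is not given in the sources used here. The values were on a linear scale and were taken to log2 with no offset. Arrays have no read depth, and their number limits the precision.

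Of 22690 probe sets, 64 controls, 691 with several gene symbols and 1555 with none were left out. The remaining 20380 covered 12393 genes, each represented by its brightest probe set over all arrays. Comparisons used limma 3.58.1 in R 4.3.3 (lmFit, eBayes with an intensity trend) over all genes, with Benjamini-Hochberg adjustment and calls under 0.05, and the fit was tested on simulated data. Leukemic cells were fitted with pre-B or pro-B arrays alone, and the normal steps in 1 fit of 23 arrays. Correlations used 100000 permutations, two-sided. Correlation p-values were adjusted within their family by Benjamini-Hochberg. Text names the members, Cdkn2a, up to 4 called genes in each direction and 2 uncalled genes of each pathway list by size of difference, and the 2 genes most like each of 4 members. Beyond that rule, Igll1 and Ebf1 were named after their values on array 122 were seen. The members, lists and tests were chosen with earlier results of these data known. The alternatives changed the normalization (quantile), the variance prior (no trend), the genes tested (no gene among the dimmest 40%), the probe sets (their mean, each singly, or none with a cross-hybridisation suffix) and the samples (each array left out in turn, array 116 included, run 1 or run 2 alone, all arrays in 1 fit). Others added the accession run, the myeloid mean or the replicate number to the fit, or left the 2 farthest arrays out of a correlation. Correlations over the 12 leukemic arrays with lower Cdkn2a and without array 122 were chosen after seeing the data.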

Additional observations from a re-analysis of the deposited data

Results flagged for a closer look

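Cdkn2a on normal pre-B array 4 read 4.83 (log2 intensity), the highest of the 8 pre-B arrays, whose median was 4.11. The gap to the nearest other pre-B array was 0.630 of the group's range, above Dixon's 95% critical value of 0.526 for 8 samples. It was the only one of 30 sets of values (9 members and Cdkn2a in the 3 groups of 6 to 8 arrays) to pass that limit, and chance alone passes about 1 in 20. The leukemic minus pre-B difference of Cdkn2a was 2.01 with that array and 2.10 without it (limma adjusted p = 0.0193 and 0.0221).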

How the results depend on the processing

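Of the members' limma results under the alternatives, 1578 stayed on their side of the threshold, 23 lost a call, 9 gained one and 0 calls changed direction. The 1578 include results called in neither fit. Correlations with Cdkn2a are not in this tally and are given at the end of this paragraph. In leukemic against pre-B cells, 1987 genes and 6 members were called; the genes came to 3149 with every probe set by itself and to 1001 within run 1, where 3 members were called, and leaving out 1 array gave 1617 to 2359 genes and 5 to 6 members. Against pro-B cells, 1950 genes and 1 member were called. The genes came to 813 without the dimmest 40%, 2969 by probe set, 344 within run 1, 786 within run 2 and 254 with the myeloid covariate. Members came to 2 with the run as covariate or all arrays in 1 fit and to 0 within run 1 or with the myeloid covariate, and leaving out 1 array gave 860 to 2777 genes, the lowest without pro-B array 2, and 1 to 2 members. For pre-B against pro-B (4162 genes), the genes came to 2509 without the dimmest, 2191 within run 1, 2055 within run 2 and 2627 with all arrays, and 3 of 7 members were called without suffixed probe sets. For immature against pre-B cells (2426 genes), they came to 3726 by probe set, 1314 within run 1 and 1414 with all arrays, where 1 member was called. For mature against immature B cells (651 genes), they came to 989 by probe set and 203 with all arrays. Members there came to 3 with the mean of probe sets and to 0 without suffixed probe sets or with all arrays. Leaving out 1 array gave 241 to 801 genes, the ends being without mature array 1 and without mature array 2, and 0 to 1 members. For pIpC, 1 gene was called by probe set and 1 without suffixed probe sets, and leaving out 1 array gave 0 to 2. For the slope on Cdkn2a, 24 genes were called, 40 by probe set and 0 without the 2 farthest arrays, and leaving out 1 array gave 3 (without array 117) to 73 (without array A1507) genes and 0 to 1 members. The 2 relations with Cdkn2a past the threshold came to 0 without the 2 farthest arrays, within run 1, over the 12 lower arrays and without array 122. Subsets and smaller sets of genes or probe sets hold fewer arrays or genes by construction. The cause of the changed counts was not tested in any of these settings.

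The replicate numbers in the titles did not pair the normal samples: deviations of same-numbered arrays correlated above 0.1 in 15 of 27 pairs, and those of other numbers in the same run in 51 of 71. With the replicate block, 3057, 2550 and 581 genes and 4, 2 and 1 members were called at the 3 normal steps, and Phlda3 (-0.61, adjusted p = 0.0635) and Gadd45b (0.58, adjusted p = 0.0528) did not pass. Bbc3, Phlda3 and Cdkn2a lie among the dimmest 40% of genes, where signal over background limits their values.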
